A study of Homo sapiens with 12 samples.

Results

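Kidney development transcription factors were followed as a group of 8 named genes, PAX2, PAX8, WT1, SIX2, EYA1, LHX1, SALL1 and GATA3, in RNA-Seq counts of 4 lines of HEK293T. The rule names the genes and uses no measured value, but it was set with earlier results of these data known. Of the 8 genes, 7 were found among the 14438 gene symbols of the count table and PAX8 was not analysed here. For 6 of them a test was possible in every line, among 14263 genes tested.

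HEK293T is a cell line that descends from human embryonic kidney. The parental cells have no EZH2 mutation of their own, and all 4 lines were made from them by lentiviral infection and drug selection. The lines carried introduced EZH2 WT, the gain-of-function (GOF) mutants EZH2 Y641F or EZH2 A677G, or the loss-of-function (LOF) double mutant EZH2 H689A/F667I, with 3 replicates of each line. The EZH2 WT line therefore also expressed an introduced gene, and an uninfected or empty-vector line was not analysed here. Each construct was represented by 1 stably infected line, so that effects of the mutation and differences between the lines cannot be told apart. The labels do not say whether the replicates came from separate cultures, so p-values measure the spread between these samples only.

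PAX2 and PAX8 commit the intermediate mesoderm to the kidney lineage, and LHX1 and GATA3 act with them in the nephric duct. In the metanephric mesenchyme, SIX2 keeps nephron progenitors undifferentiated, EYA1 is a phosphatase and coactivator that partners SIX2 and its relatives, SALL1 is a zinc finger factor of the same progenitors, and WT1 sustains the mesenchyme and later the podocytes. EZH2 is the catalytic subunit of polycomb repressive complex PRC2, which methylates lysine 27 of histone H3 and is known to act at CpG-rich promoters of developmental genes such as these.

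RefSeq promoter entries on GRCh38.p14 were matched for 4 of the 7 genes, PAX2, WT1, SIX2 and GATA3, and not for EYA1, LHX1 and SALL1. The 250 bases before the most upstream start held 26 CpG dinucleotides in SIX2, 19 in WT1, 11 in GATA3 and 10 in PAX2, against a median of 21 over 10532 genes of the table with an entry. The entries listed 1 start for SIX2, 4 for WT1, 6 for GATA3 and 2 for PAX2. Only the most upstream was counted, so these counts do not describe the other starts of WT1, GATA3 and PAX2. As many CpG as in SIX2, or more, were counted in 33.4% of those promoters, and as many as in PAX2, or more, in 85.1%. The promoters of SIX2 (chr2:45009453-45009702, minus strand) and PAX2 (chr10:100735146-100735395, plus strand) are given here because these genes had the highest and the lowest transcript level of the group. They read 5′ to 3′ towards the gene, and capitals mark each CG, the only motif counted, which is the same on both strands.
SIX2: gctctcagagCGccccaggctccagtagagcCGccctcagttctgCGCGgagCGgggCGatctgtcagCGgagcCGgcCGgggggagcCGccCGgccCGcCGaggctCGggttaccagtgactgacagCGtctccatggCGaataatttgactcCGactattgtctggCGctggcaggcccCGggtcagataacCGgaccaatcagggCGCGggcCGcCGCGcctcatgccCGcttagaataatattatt
PAX2: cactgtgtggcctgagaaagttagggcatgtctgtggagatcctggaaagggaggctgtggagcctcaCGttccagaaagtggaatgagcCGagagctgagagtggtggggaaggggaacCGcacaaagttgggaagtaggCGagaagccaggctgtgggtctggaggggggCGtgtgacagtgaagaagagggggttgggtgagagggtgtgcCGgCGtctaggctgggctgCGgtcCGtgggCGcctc

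The group spanned a wide range of transcript levels, in an order that hardly changed between lines. Levels are given as CPM, counts scaled to a common library size with TMM normalization, and for comparisons between genes they were divided by exon length in kb. Over all 12 samples, the mean level was 12.9 CPM per kb for SIX2, 4.69 for SALL1, 2.50 for GATA3, 0.969 for WT1, 0.825 for LHX1, 0.512 for EYA1 and 0.0498 for PAX2. SIX2 thus ranked at the 75.9th percentile of the 14081 genes with a known length, SALL1 at the 51st, and PAX2 at the 0.845th. The mean, rank and order of PAX2 include its zeros in A677G, which may be empty entries. In the other lines its mean was 0.0607 to 0.0753 CPM per kb. Each gene was above the next one in the order in all 12 samples, except that WT1 was above LHX1 in 8 of 12. The replicates of WT1 and LHX1 overlapped in every line but A677G, and those of LHX1 and EYA1 were apart in 3 of the 4 lines.

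**Figure D1:**
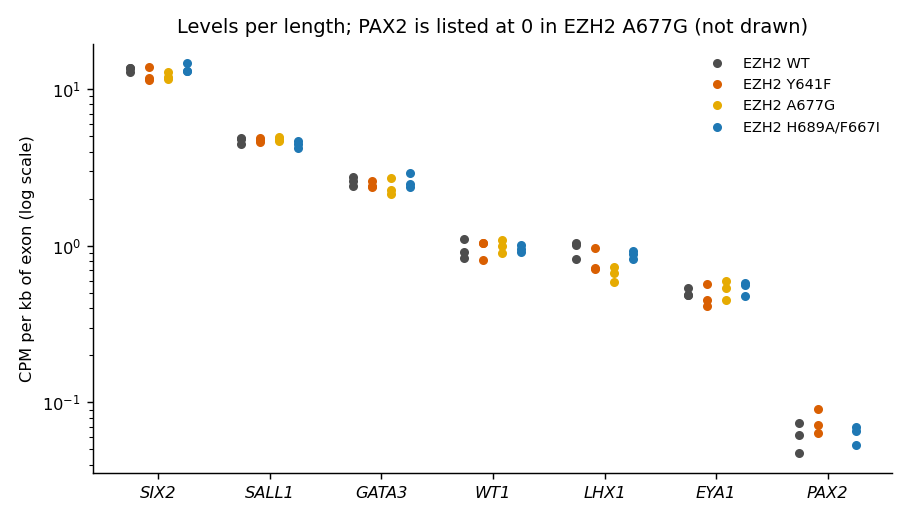
Level of each kidney development transcription factor in CPM per kb of exon (log axis), with 1 point per sample and the 4 lines in colour. SIX2 is highest and PAX2 lowest, WT1 and LHX1 lie close together, and the 3 zeros of PAX2 in A677G cannot be drawn on the log axis.

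The tests below rest on total counts of 32137700 to 44562413 per sample. EZH2 itself, whose counts hold both the endogenous and the introduced transcript, was higher than in the WT line by 0.46 on the log2 scale in Y641F (SE 0.0399, adjusted p = 1.57e-10), by 0.13 in A677G (SE 0.0401, adjusted p = 0.0294) and by 0.40 in H689A/F667I (SE 0.0400, adjusted p = 1.15e-07). The A677G line thus had less EZH2 transcript than the other mutant lines, and its difference from WT missed the threshold with upper-quartile factors (adjusted p = 0.0771) and library totals (adjusted p = 0.063), and without replicate 1 or 3 of WT (0.111 and 0.126) or replicate 1 or 3 of A677G (0.102 and 0.233).

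Of the 6 factors tested, LHX1 was the only one past the threshold in any comparison, and only in A677G against WT, where it fell. The mutants share the WT samples as controls. Tests were edgeR's quasi-likelihood tests, and the threshold was an adjusted p of 0.05 (Benjamini-Hochberg, over the whole table). In Y641F against WT, 0 of the 6 factors passed, while 7.68% of all genes tested did. In A677G, 1 of 6 passed beside 8.55% of all genes, and in H689A/F667I 0 of 6 beside 0.301%. Between Y641F and A677G, 0 of 6 passed beside 0.0841% of all genes, and between the mean of the GOF lines and the LOF line 0 of 6 beside 12.6%. At an unadjusted p under 0.05, the counts were 0, 1, 0, 0 and 2 in this order, beside 2740, 2911, 1184, 985 and 3401 of the 14263 genes tested. DESeq2, limma voom and, where it was run, edgeR's exact test gave the same counts of factors past the adjusted threshold as the quasi-likelihood test. The median log2 fold change of the 6 factors was -0.06 in Y641F, -0.05 in A677G and 0.00037 in H689A/F667I, against 0.0025, 0.0045 and 0.0024 over all genes tested.

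**Figure D2:**
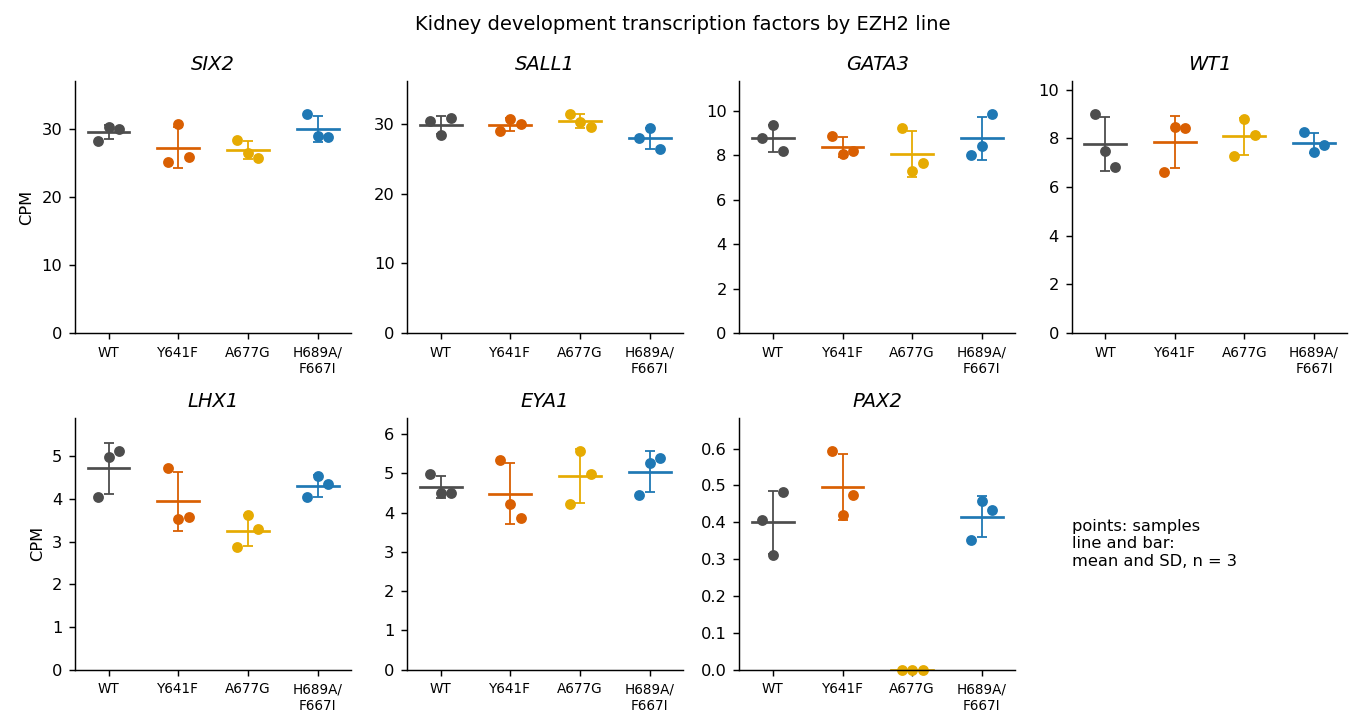
CPM of each factor in every sample (points), with the mean and SD of 3 replicates per line and axes that start at 0. LHX1 is lowest in A677G, where its 3 samples lie below the 3 of WT, and PAX2 is listed at 0 in the 3 samples of A677G.

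LHX1, a LIM homeodomain factor of the nephric duct and the early nephron (chr17:36936785-36944612, plus strand), was measured at 4.03, 4.97 and 5.13 CPM in WT. Its values were 4.73, 3.52 and 3.57 CPM in Y641F, 2.87, 3.61 and 3.29 in A677G, and 4.03, 4.53 and 4.34 in H689A/F667I. All samples of A677G were below all samples of WT, whereas the other mutant lines overlapped with WT. The log2 fold change in A677G was -0.53 (SE 0.158, 95% interval -0.85 to -0.21, adjusted p = 0.0263). It was -0.25 in Y641F (SE 0.155, 95% interval -0.57 to 0.06, adjusted p = 0.397) and -0.13 in the LOF line (SE 0.156, 95% interval -0.44 to 0.19, adjusted p = 0.878). The difference between Y641F and A677G, 0.28 on the log2 scale (SE 0.159, 95% interval -0.04 to 0.60, adjusted p = 0.785), did not pass, so that the fall in one GOF line was not shown to differ from the value in the other. In bulk RNA, fewer cells that express LHX1 and less LHX1 RNA per cell cannot be told apart.

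The LHX1 call kept its side of the threshold under 12 other processing settings but depended on single libraries. Without replicate 2 of WT the adjusted p was 0.115, without its replicate 3 it was 0.113, without replicate 1 of A677G it was 0.155 and without its replicate 3 it was 0.0658. The log2 fold change ranged from -0.64 to -0.45 over all refits. The genes whose log2 CPM was most like that of LHX1 over the 12 samples were MYOM2, which encodes a myomesin of the sarcomere (Pearson's r = 0.90), PLCB1, a phospholipase C (r = 0.89), and YOD1, a deubiquitinase (r = 0.89). These are the highest values over genes averaging 1 log2 CPM or more, and are given as a description, since the samples share the lines and r was not tested.

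**Figure D3:**
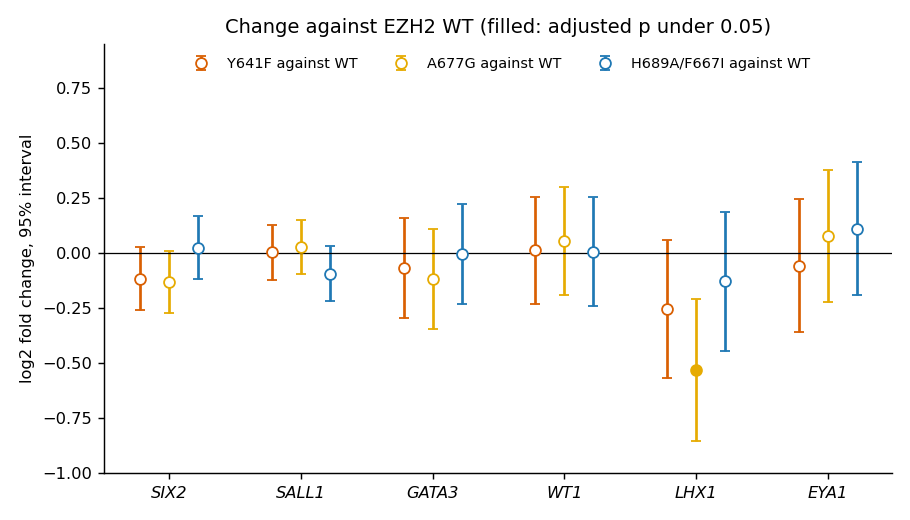
Log2 fold change against WT with its 95% interval for the 6 factors tested, in the 3 mutant lines (n = 3 per line). Only LHX1 in A677G (-0.53) is filled, which marks an adjusted p under 0.05, and every other interval includes 0.

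PAX2 was at the edge of detection. Its counts were 15, 12 and 16 in WT, 25, 16 and 20 in Y641F, 13, 18 and 14 in H689A/F667I, and 0, 0 and 0 in A677G. It was therefore present at a low level in 3 lines and listed at 0 throughout the fourth. A count of 0 allows up to 3 counts, or 0.0673 to 0.0823 CPM per library of A677G. Read as counts, the zeros would place PAX2 at least 4.86-fold lower than its mean of 0.400 CPM ± 0.0862 (SD, n = 3) in WT, by the floor per library and for counting error only.

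The zeros of PAX2 belong to a pattern of the table. In it, 134 genes were listed at 0 in all replicates of A677G, 100 in all replicates of H689A/F667I and 0 in all replicates of WT or Y641F. In A677G, 0 genes were at 0 in exactly 2 of 3 replicates, and 3 genes in exactly 1. Of 159 genes whose summed count in WT was at or below that of PAX2, 89 were at 0 in all A677G samples, and the lowest sum above 0 in A677G was 10. Whether these zeros are counts or empty entries cannot be told apart, so PAX2 was left out of the fit with A677G. In a fit of the other 9 samples, chosen after seeing the data, its log2 fold change was 0.32 in Y641F (SE 0.394, 95% interval -0.48 to 1.12, adjusted p = 0.744) and 0.06 in H689A/F667I (SE 0.412, 95% interval -0.78 to 0.90, adjusted p = 0.987).

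SIX2, the most abundant factor per length (chr2:45005182-45009452, minus strand), was measured at 28.3, 30.3 and 30.0 CPM in WT and at 32.3, 29.0 and 28.9 in H689A/F667I. Its values were 25.2, 30.8 and 25.9 CPM in Y641F and 28.4, 26.6 and 25.8 in A677G. The lower values of the GOF lines overlapped with the other lines. The difference between the mean of the GOF lines and the LOF line was -0.15 on the log2 scale (SE 0.0601, unadjusted p = 0.0184, adjusted p = 0.108), and it passed when replicate 2 of Y641F, the highest GOF sample, was left out (-0.19, adjusted p = 0.0186). Against WT the changes were -0.12 in Y641F (95% interval -0.26 to 0.02), -0.13 in A677G (-0.27 to 0.01) and 0.02 in the LOF line (-0.12 to 0.17).

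SALL1, which encodes a zinc finger repressor (chr16:51135982-51152334, minus strand), had the smallest spread between replicates, with a coefficient of variation of 4.06% within lines. Its level was 29.9 CPM ± 1.33 (SD, n = 3) in WT, 29.9 ± 0.891 in Y641F, 30.4 ± 0.946 in A677G and 28.0 ± 1.48 in H689A/F667I. The 3 samples of the LOF line, at 28.0, 29.4 and 26.4 CPM, were all below those of A677G and overlapped with Y641F through 1 sample of that line at 29.0 CPM. The mean of the GOF lines exceeded the LOF line by 0.11 on the log2 scale (SE 0.0532, unadjusted p = 0.0462), with an adjusted p of 0.200 in edgeR's quasi-likelihood test. This difference passed once the GC content trend was removed (0.17, adjusted p = 0.0224), and with the replicate number as a block in addition (adjusted p = 0.0251). Removing the trend also raised the calls over all genes in this comparison from 1792 to 3060 of 14263.

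EYA1, the coactivator that partners SIX2, ranged from 3.85 to 5.58 CPM over the GOF samples and from 4.44 to 5.40 CPM over the other samples. Its line means were 4.66 CPM ± 0.277 (SD, n = 3) in WT, 4.48 ± 0.778 in Y641F, 4.93 ± 0.682 in A677G and 5.04 ± 0.522 in H689A/F667I, and the lines overlapped. Changes against WT were -0.06, 0.08 and 0.11 on the log2 scale, with 95% intervals from -0.36 to 0.24, -0.22 to 0.38 and -0.19 to 0.41.

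WT1, the Wilms tumour zinc finger factor (chr11:32387775-32435564, minus strand), was the factor with the most similar line means. The highest exceeded the lowest 1.04-fold, while its replicates varied by 11.3% within lines. It was measured at 9.01, 7.48 and 6.82 CPM in WT, 6.63, 8.48 and 8.44 in Y641F, 7.29, 8.82 and 8.14 in A677G, and 8.28, 7.44 and 7.73 in H689A/F667I. The spread within each line was wider than the distance between lines. The 95% intervals of its log2 fold change against WT ran from -0.23 to 0.26, from -0.19 to 0.30 and from -0.24 to 0.25 in the same order of mutants.

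WT1-AS, a non-coding RNA that starts inside the 5′ end of WT1 on the other strand (chr11:32435518-32500632), was scarce, with 4 to 24 counts in WT and 19 to 40 in Y641F. Its log2 fold change was 0.97 in Y641F (SE 0.421, adjusted p = 0.175), 0.75 in A677G (adjusted p = 0.333) and 0.62 in the LOF line (adjusted p = 0.772). The lines overlapped, and 1 library of WT held only 4 counts. The libraries kept strand, but the strand setting of the quantification is not given in the sources used here. The annotated pair overlaps only from 32435518 to 32435564, so this limit concerns reads from that stretch.

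GATA3, a zinc finger factor of the nephric and collecting ducts (chr10:8045378-8075198, plus strand), lay between 7.30 and 9.87 CPM in all 12 samples. Its mean was 8.77 CPM ± 0.597 (SD, n = 3) in WT, 8.38 ± 0.429 in Y641F, 8.07 ± 1.02 in A677G and 8.77 ± 0.969 in H689A/F667I, and all lines overlapped. The log2 fold changes were -0.07, -0.12 and -0.01, with adjusted p-values of 0.817, 0.621 and 0.994 in edgeR's quasi-likelihood test. GATA3-AS1, a non-coding RNA within GATA3 on the other strand (chr10:8050450-8053484), had 7 to 35 counts per sample and did not pass in any comparison (adjusted p of 0.754 to 0.971). It lies wholly within GATA3, and the strand setting of the quantification is not given, so reads of this pair cannot be told apart with certainty.

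Around these factors, the wider kidney development list showed more falls than rises in the GOF lines. The list held relatives of the factors, other factors of the nephric duct and nephron, and signals and receptors, and 74 of its 97 genes were tested. It was drawn up with earlier results of these data known, so its counts are a description. The size of a fall or rise of a single gene is given on the log2 scale throughout. In Y641F, 13 genes fell and 1 rose, which is 17.6% and 1.35% of the list against 5.59% and 2.09% of all genes tested. In A677G, 13 fell and 4 rose (17.6% and 5.41%, against 6.48% and 2.07%). The LOF line had 1 fall and 1 rise (1.35% and 1.35%, against 0.161% and 0.14%). Between the mean of the GOF lines and the LOF line, 17 genes were lower and 4 higher (23.0% and 5.41%, against 8.75% and 3.81% of all genes).

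With the GC trend of the samples removed, falls were about as many and rises were more. The counts then became 11 falls and 3 rises in Y641F, 12 and 8 in A677G, and 16 lower and 15 higher genes between the GOF lines and the LOF line. Over all genes tested, falls and rises moved from 797 and 298 to 695 and 805 in Y641F, from 924 and 295 to 836 and 1302 in A677G, and from 1248 and 544 to 1099 and 1961 between the GOF lines and the LOF line. The count of 14 in Y641F was 9 without replicate 1 of WT, 9 without its replicate 2 and 8 without replicate 3 of Y641F. With only the compared lines in the fit it was 10, and all genes past the threshold went from 1095 to 843. In A677G the same change took the list from 17 to 19 and all genes from 1219 to 1618. Between Y641F and A677G, 0 list genes passed, beside 0.0841% of all genes tested. At an unadjusted p under 0.05 there were 10 of the 74 list genes, beside 985 of the 14263 genes tested. Past the adjusted threshold there were 0 list genes by DESeq2 and limma voom and 1 by edgeR's exact test. The median log2 fold change of the list was -0.05, -0.04 and -0.03 in Y641F, A677G and the LOF line.

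**Figure D4:**
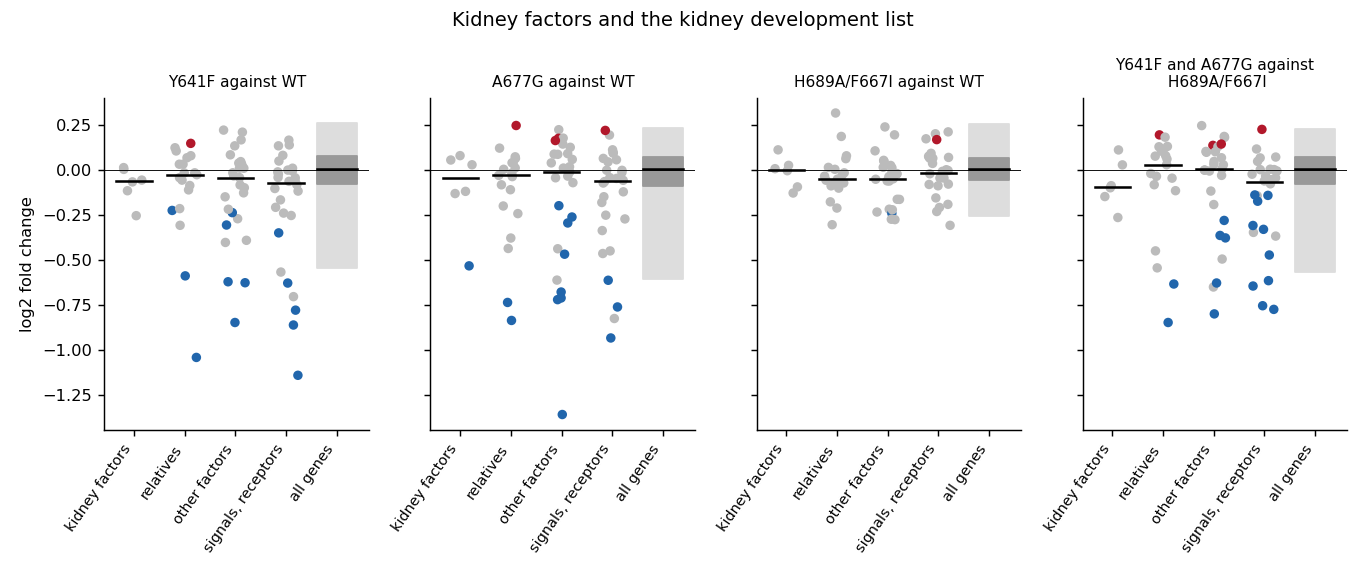
Log2 fold change of each gene in 4 comparisons, for the kidney factors and for the 3 groups of the kidney development list, with a black line at the group median. Blue and red points passed the threshold as lower or higher, grey points did not, and the bars at the right span the 5th to 95th (light) and 25th to 75th (dark) percentiles of all genes tested.

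Among the relatives of the factors, EYA2 and DACH2 fell in both GOF lines, out of 19 tested, and GATA4 also fell in Y641F. Falls over all genes tested were 5.59% in Y641F and 6.48% in A677G. The GATA4 call was lost under 4 of 12 settings and 5 of 6 leave-outs, those of replicate 1, 2 or 3 of WT and 2 or 3 of Y641F, with adjusted p-values up to 0.183. EYA2, a coactivator of the same family as EYA1, was measured at 10.8, 9.89 and 8.87 CPM in WT and 11.4, 11.0 and 11.3 in H689A/F667I. It was at 6.56, 5.99 and 7.09 CPM in Y641F and 6.08, 5.80 and 5.87 in A677G, below all other samples. The log2 fold changes were -0.59 (SE 0.107, adjusted p = 0.000223) and -0.74 (SE 0.109, adjusted p = 8.22e-06). DACH2, of the dachshund family that works with EYA1 and its relatives, fell by 1.04 in Y641F (SE 0.200, adjusted p = 0.000436) and by 0.83 in A677G (SE 0.197, adjusted p = 0.00382). The second value did not pass without replicate 2 of A677G (-0.64, adjusted p = 0.0584).

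**Figure D5:**
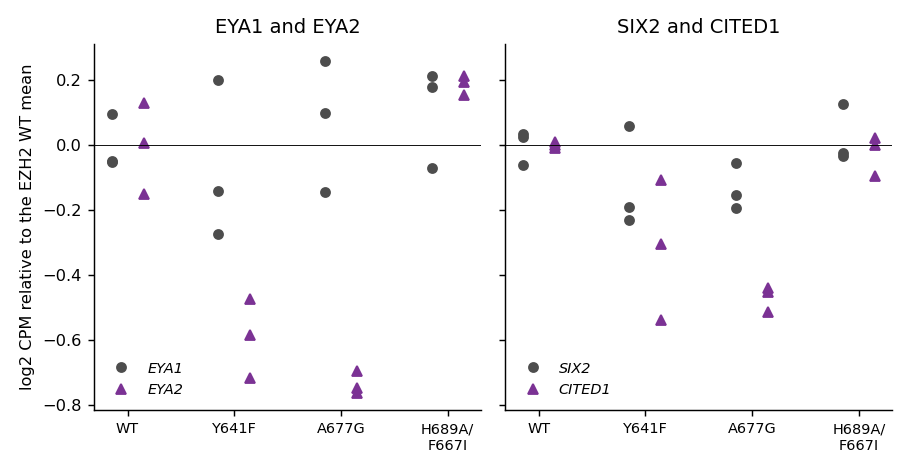
Log2 CPM relative to the WT mean in every sample, for EYA1 with EYA2 and SIX2 with CITED1. Triangles of EYA2 and CITED1 lie below those of WT in the GOF lines, while the circles of EYA1 and SIX2 overlap between WT and each mutant.

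Of 27 other nephric and nephron factors tested, 5 fell in Y641F and 8 in A677G, where FOXC1 and HOXA10 rose. Beside this, 5.59% of all genes tested fell in Y641F, and 6.48% fell and 2.07% rose in A677G. CITED1, which marks the nephron progenitors that also express SIX2 and is named here after its values were seen, had 120 to 122 CPM in WT, 83.4 to 112 in Y641F, 84.9 to 89.2 in A677G and 113 to 123 in H689A/F667I. It fell by 0.31 (SE 0.0575, adjusted p = 0.000328) and by 0.47 (SE 0.0578, adjusted p = 3.51e-07) in the GOF lines. Its SD over 3 replicates was 14.5 CPM in Y641F, 0.860 in WT, 2.32 in A677G and 5.15 in H689A/F667I. The SE in Y641F, from the spread shared by all lines, may therefore be too small. Across genes, pairs of Y641F replicates differed by a chi-square of 10.3 to 14.7 per degree of freedom, against 3.33 to 7.07 in the other lines. Other SEs in Y641F may therefore be too small as well. TFCP2L1, a factor of the distal nephron and collecting duct, fell by 0.72 in A677G (SE 0.135, adjusted p = 0.000268). FOXC1, a forkhead factor of the early kidney field, rose by 0.17 in A677G (SE 0.0420, adjusted p = 0.00477). This rise was lost without replicate 1 of WT (adjusted p = 0.0518) or replicate 3 of A677G (adjusted p = 0.0585). That of HOXA10, a posterior homeobox gene, was lost under 3 of 12 settings and without replicate 1 or 3 of WT or any 1 replicate of A677G (adjusted p up to 0.286).

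POU3F3, a POU factor of the distal nephron, fell by 0.24 in the LOF line (SE 0.0495, adjusted p = 0.0155), from 60.8 CPM ± 1.22 (SD, n = 3) in WT to 51.4 ± 2.03. It also fell by 0.20 in A677G (SE 0.0491, adjusted p = 0.00604), and its log2 fold change in Y641F was -0.15 (adjusted p = 0.0524), with all samples of the 3 mutant lines below those of WT. HEY1, a target of Notch signals in the nephron, rose by 0.17 in the LOF line (SE 0.0389, adjusted p = 0.0443), from 163 CPM ± 4.37 to 183 ± 8.03. Both calls in the LOF line were lost without replicate 1, 2 or 3 of WT or replicate 1 or 2 of H689A/F667I, with adjusted p-values up to 0.201 for POU3F3 and 0.412 for HEY1. HEY1 also missed the threshold with library totals (adjusted p = 0.113), with the replicate number as a block (0.0504), with the GC trend removed (0.0791) and with both of the last (0.0778).

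Among 28 signals and receptors tested, 5 fell in Y641F, 3 fell in A677G, and SLIT2 rose in A677G. For all genes tested, the shares were 5.59% (falls in Y641F), 6.48% (falls in A677G) and 2.07% (rises in A677G). GFRA1, the co-receptor for GDNF in budding of the ureter, was measured at 10.1, 9.55 and 8.57 CPM in WT, 7.04, 5.31 and 4.14 in Y641F, 4.89, 5.41 and 4.50 in A677G and 9.04, 8.05 and 9.68 in H689A/F667I. All GOF samples were below all others. It fell by 0.78 (SE 0.136, adjusted p = 0.000123) and by 0.93 (SE 0.138, adjusted p = 8.30e-06) in the GOF lines. The SD of GFRA1 was 1.46 CPM in Y641F and 0.456 to 0.823 in the other lines, so its SE in Y641F may also be too small. LGR5, a receptor for R-spondins that enhance WNT signals, fell by 1.14 in Y641F (SE 0.128, adjusted p = 5.69e-08) and by 0.61 in A677G (SE 0.124, adjusted p = 0.000707). WNT11, a ligand of the ureteric bud tips, fell by 0.76 in A677G (SE 0.143, adjusted p = 0.000276). It also passed as lower in Y641F, with a mean of 3.76 CPM against 5.81 in WT. NPNT, the nephronectin of the bud's basement membrane, fell by 0.86 in Y641F (SE 0.180, adjusted p = 0.00121). SLIT2, the ROBO2 ligand that limits where the bud forms, rose by 0.22 in A677G (SE 0.0465, adjusted p = 0.00134).

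Some markers of other cell types moved beside these changes, and their part in them was not tested. Of 11 neuronal markers 6 were analysed, and their summed level was 343 to 360 CPM in WT, 216 to 257 in Y641F, 184 to 206 in A677G and 291 to 301 in H689A/F667I. Most of this sum came from the neurofilament genes NEFL and NEFM, at 133 and 185 CPM in WT, which fell in all 3 mutant lines, while the other 4 did not pass in any comparison. Mature kidney markers, 7 of 19 analysed, summed to 52.2 to 56.5 CPM in WT, 39.7 to 50.6 in Y641F, 41.2 to 42.3 in A677G and 51.9 to 58.1 in the LOF line. Most of this sum came from PODXL and LRP2, at 26.5 and 23.1 CPM in WT. The others were scarce, with means of 0.489 to 1.36 CPM in WT, and SYNPO had 14 to 16 counts in A677G. Of the 7 mature kidney markers, PODXL fell in Y641F, and PODXL, SYNPO, LRP2 and AQP3 fell in A677G, beside 5.59% and 6.48% of all genes tested. The defining podocyte and tubule markers NPHS1 and UMOD were not analysed here, and the sum rests on PODXL, SYNPO, LRP2, CUBN, SLC5A2, AQP3 and ATP6V1B1 alone. These mark mature kidney cells, so the embryonic kidney label was not checked by them. Epithelial and mesenchymal markers, 6 of 7 analysed, summed to between 416 and 433 CPM in all samples, but single members moved within this sum. Most of it came from VIM and CDH2, at 270 and 117 CPM in WT. There KRT18 had 34.2 CPM, KRT8 4.60, CDH1 2.19 and EPCAM 0.532, so the sum mainly follows VIM and CDH2. CDH2, an N-cadherin, rose by 0.15 in Y641F (adjusted p = 0.0181) and by 0.18 in A677G (adjusted p = 0.00426), and VIM, the vimentin gene, fell by 0.12 in Y641F (adjusted p = 0.0187). KRT18, a keratin, was lower in the GOF lines than in the LOF line (-0.17, adjusted p = 0.0348). The 1 adrenal marker and the 1 blood marker analysed stayed at or under 1.30 CPM.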

How the data were processed

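RNA was sequenced from 12 samples, 3 replicates of each of 4 HEK293T lines, with a stranded mRNA kit. Values are whole-number counts per gene symbol, which the authors deposited unnormalized. Per the labels and the paper's methods, reads were trimmed with Trim Galore 0.6.5, aligned to GRCh38 with STAR 2.7.9a and quantified with Salmon 1.2.0. How Salmon estimates became whole counts is not given in the sources used here.

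In total, 175 genes listed at 0 throughout the A677G or the LOF line were left out, which kept 14263 genes. The test was edgeR's quasi-likelihood test (edgeR 4.0.16 in R 4.3.3) after TMM normalization, with 1 coefficient per line and all samples in 1 fit. Benjamini-Hochberg adjustment covered all 14263 genes, at a threshold of 0.05. Log2 CPM used a prior count of 2. The paper's exact test was an alternative, as were DESeq2 1.42.0, limma voom (limma 3.58.1), other scalings and filters, removal of GC trends, a replicate block and leaving out each replicate. The procedure was tested on simulated counts.

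Named were all factors found, their antisense neighbours, up to 3 genes per direction of the kidney development list (mean log2 CPM not under 1) and the 3 genes most like each factor that passed. Some listed genes are counted but not reported here by name. The members, lists and rules were chosen with earlier results of these data known. Of 14438 symbols, 13272 matched a GENCODE name and 809 a RefSeq synonym, for positions and exon lengths.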

Additional observations from a re-analysis of the deposited data

Results flagged for a closer look

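For 12 genes of the kidney development list named in the text, the effect against WT differed between the GOF lines and the LOF line, by the test of the mean of Y641F and A677G against H689A/F667I in edgeR's quasi-likelihood fit. None of the kidney factors themselves did (0 of 6). Of the 74 list genes tested, 21 passed this test, beside 12.6% of all genes tested. The 12 were named for passing in some comparison, this one included, and CITED1 after its values were seen. Their number is therefore set in part by that choice. Lower in the GOF lines than in the LOF line were EYA2 (log2 difference -0.85, adjusted p = 9.13e-09), TFCP2L1 (-0.80, adjusted p = 1.76e-06), GFRA1 (-0.77, adjusted p = 6.65e-06), NPNT (-0.75, adjusted p = 0.000379), LGR5 (-0.64, adjusted p = 3.73e-05), DACH2 (-0.63, adjusted p = 0.0097), WNT11 (-0.61, adjusted p = 0.000362), CITED1 (-0.36, adjusted p = 1.07e-06) and HEY1 (-0.17, adjusted p = 0.000242). Higher in the GOF lines than in the LOF line were SLIT2 (0.22, adjusted p = 0.000116), HOXA10 (0.14, adjusted p = 0.0311) and FOXC1 (0.14, adjusted p = 0.00972). The mean of HEY1 was 162 CPM in Y641F and 163 in A677G, beside 163 in WT and 183 in the LOF line. That of HOXA10 was 58.0 CPM in Y641F and 63.8 in A677G, beside 57.1 in WT and 55.1 in the LOF line.

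Several of these calls depended on a single library. DACH2 did not pass without replicate 2 of H689A/F667I (adjusted p = 0.0715), and FOXC1 did not pass without replicate 1 of that line (adjusted p = 0.147). HOXA10 did not pass with upper-quartile factors (adjusted p = 0.0644), nor without replicate 2 of Y641F (0.0613), replicate 2 of A677G (0.0549), or replicate 2 (0.0833) or 3 (0.244) of the LOF line.

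The EZH2 transcript itself was higher in Y641F than in A677G by 0.33 on the log2 scale (SE 0.0396, adjusted p = 9.34e-06), so the GOF lines differed in the amount of EZH2 RNA. For the kidney factors, groups of 3 replicates are too small to single out a sample that lies apart.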

How the results depend on the processing

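Over 56 single-gene values past the threshold, of factors, EZH2 and list genes, also those not named in the text, 0 of 1047 refits changed direction and 100 lost the call. Of 728 refits of values that did not pass, 9 passed and 40 took the other sign. Of 6 kidney factors, 0 passed in Y641F or H689A/F667I against WT under every setting. With the genes at 0 kept, which adds PAX2, the factors past the threshold were 2 in A677G against WT, 1 in Y641F against A677G and 1 in the GOF lines against the LOF line. The last count was also 1 with the GC trend removed, alone or with the replicate block. Leaving out each replicate gave 0 to 1 factors in A677G and 0 to 1 in the GOF lines against the LOF line. For the kidney development list, leaving out each replicate gave 8 to 19 genes in Y641F, 0 to 2 in H689A/F667I and 0 to 1 in Y641F against A677G. In H689A/F667I the count of 2 became 1 with library totals, with the replicate block, with the GC trend removed and with both of the last. In Y641F against A677G the count of 0 became 1 with edgeR's exact test and 2 with the genes at 0 kept. The cause of these moves was not tested.

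Replicate numbers did not pair the samples: over 18 pairs with the same number the correlation of deviations from the line means was -0.0557 to 0.0501, and 0 pairs exceeded 0.1. With the replicate block, LHX1 in A677G stayed past the threshold, and the list had 16 genes in Y641F and 17 in A677G. The exact test was not run for the mean of 2 lines. Over all genes, GC removal raised calls from 1219 to 2138 in A677G and from 1792 to 3060 in the GOF lines against the LOF line. Keeping the genes at 0 raised them from 43 to 169 in the LOF line and from 12 to 178 between the GOF lines. Other counts over all genes were 76 (exact test), 99 (limma voom) and 86 (only the compared lines) in the LOF line, and 23 (exact test) and 19 (DESeq2) between the GOF lines. Leaving out each replicate gave 703 (without replicate 2 of WT) to 1232 in Y641F (1095 with all), 11 to 36 in the LOF line and 8 to 57 between the GOF lines. Of 30 factor values, 3 changed sign between scalings, WT1 in Y641F and the LOF line and SALL1 in Y641F, none past the threshold. Depth limits PAX2 most, where the 95% interval in Y641F spans -0.48 to 1.12.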
